A study of Homo sapiens with 6 samples.

Results

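Notch is a signalling route between touching cells, and this account follows 9 of its genes in D283 Med, an established line of childhood medulloblastoma, the malignant tumour that arises in the cerebellum. The genes were chosen by symbol: the receptors NOTCH1, NOTCH2 and NOTCH3, the ligands JAG1, JAG2, DLL1 and DLL3, the target genes HES1 and HEY1, and the Notch inhibitor NUMB. Of these 10 symbols, 9 had a row among the 31785 rows of the deposited table, and all 9 passed the filter on low values. DLL1 was not analysed here. NUMB and JAG1 are on the list also as mRNAs reported to be bound by Musashi proteins.

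The 6 RNA sequencing libraries fall into 2 groups of 3, one from cells of genotype WT and one from cells labelled MS1 Knockdown, that is, knockdown of the RNA-binding protein Musashi-1 (gene MSI1). All came from D283 cells kept in DMEM/F12 with fetal serum, and no other allele or agent is named for either group. Neither the knockdown method nor any control construct is named, and it is not stated whether knockdown cells were 1 clone or how many cultures stand behind the 3 libraries. The p-values measure only the spread between these libraries, which may be technical. That spread was unequal. Over all tested genes, Pearson r was 0.978 to 0.985 between WT libraries and 0.988 to 0.994 between knockdown libraries. Between a WT and a knockdown library it was 0.972 to 0.982. The model fits 1 variance per gene to both groups. The comparison asks how Notch pathway transcripts differed between libraries labelled as Musashi-1 knockdown and WT. In bulk RNA, fewer cells of a type and less RNA per cell cannot be told apart.

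Notch receptors are single-pass membrane proteins. A Jagged or Delta ligand on a neighbouring cell pulls on the receptor, which is then cut by ADAM10 and by the gamma-secretase complex, and its freed intracellular part enters the nucleus, where it joins the DNA-binding protein RBPJ and a Mastermind coactivator at target genes. The best known targets, HES1 and HEY1, encode basic helix-loop-helix repressors that hold back neuronal differentiation. NUMB, an endocytic adaptor handed unequally to daughter cells in dividing neural progenitors, lowers Notch signalling by directing the receptor to degradation. Musashi-1 was described as a translational repressor of NUMB mRNA, a role that need not show in mRNA levels.

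The regulatory letters that bear on these genes are shown first, because 2 of them belong to the reported Musashi targets and HES1 is the textbook RBPJ target. Musashi proteins recognise short RNA stretches with the core UAG. The 3′UTRs of the main coding transcripts in GENCODE 29 (GRCh38) were searched on the transcript strand only, with T for U. In each of JAG1 and NUMB the pair of non-overlapping 30-base windows with the most TAG matches is shown 5′ to 3′ in lower case, with TAG in capitals. All of them lie in the 3′UTR within 1 exon, on the minus strand, at chr20:10639450-10639479, chr20:10639152-10639181, chr14:73276160-73276189 and chr14:73275953-73275982 in the order given.
JAG1 window 1: gccgcTAGgTAGagtctgagggcttgTAGt
JAG1 window 2: cctaatggtgatgcagtctTAGatcaTAGt
NUMB window 1: ctgcctcctgtcagTAGtggcctgtatTAG
NUMB window 2: tttttatgcattTAGaatattttaaaTAGt
The first JAG1 window held 3 matches, and 0.43% of all 30-base windows in annotated 3′UTRs held at least as many. The other windows held 2 each, and 4.57% of all windows held at least as many. The windows shown were picked for having the most matches in their 3′UTR. These shares therefore do not tell whether either 3′UTR is unusual.

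Over its whole 3′UTR of 1814 bases JAG1 had 29 TAG matches, or 16.0 per kilobase, and NUMB had 19 in 1471 bases, or 12.9 per kilobase. The median over 18875 genes was 10.5 per kilobase. The base composition alone would give 20.1 per kilobase for JAG1, 21.6 for HEY1, 19.0 for NUMB and 16.9 for the median gene. HEY1 had 15.3 matches per kilobase, NOTCH1 10.4, NOTCH2 10.1, NOTCH3 9.24, DLL3 4.74, JAG2 4.67 and HES1 2.00. Longer strings reported for Musashi-1 are GTAGT or ATAGT and the forms with an added T, GTTAGT or ATTAGT. They also include those with another T, GTTTAGT or ATTTAGT, and each string contains TAG. They occurred 9 times in JAG1, 7 in NOTCH2, 6 in HEY1, 5 in NUMB, 4 in JAG2, 3 in NOTCH1 and 2 in NOTCH3. HES1 and DLL3 had none, in short 3′UTRs of 499 and 211 bases. At least 1 such string was present in 61.8% of genes. These counts were not scaled by 3′UTR length. A match is a run of letters and shows no binding.

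The bases upstream of HES1 carry 2 copies of TGGGAA, the core letters for which RBPJ is known. The 250 bases before the RefSeq start of HES1, on the plus strand at chr3:194135898-194136147 (GRCh38.p14), are printed with TGGGAA and its longer form GTGGGAA in capitals.
HES1 upstream: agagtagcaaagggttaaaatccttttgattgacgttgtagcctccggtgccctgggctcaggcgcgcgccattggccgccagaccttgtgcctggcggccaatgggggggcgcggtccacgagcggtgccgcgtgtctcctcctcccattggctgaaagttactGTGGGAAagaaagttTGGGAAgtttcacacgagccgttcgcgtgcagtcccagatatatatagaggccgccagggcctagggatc
The 2 TGGGAA matches began 84 and 70 bases before the start. Both read in the same direction. Only TGGGAA and GTGGGAA were searched for RBPJ, so sites of another form may stand in the lower-case letters. No paired arrangement of sites was searched for. A match is a run of letters and does not show that either copy is an RBPJ site. On either strand, at least 1 TGGGAA was present in 20.8% of 35116 RefSeq promoters of this length, 2 or more in 2.90%, and GTGGGAA, which contains TGGGAA, in 5.43%. None of NOTCH1, NOTCH2, NOTCH3, JAG1, JAG2 and NUMB held TGGGAA on either strand in the same window, which says only that the letters are not in these 250 bases. The promoters of HEY1 and DLL3 were not examined here.

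The libraries held 17299671 to 38790342 reads, with at least 99 reads on each of the 9 genes in each library. Differences are given as knockdown minus WT on the deposited log2-like scale, where 1 is close to a doubling for abundant genes and understates it for weak ones. Levels are in normalised reads, which are reads divided by the library's size factor. MSI1 had 1586, 1572 and 1378 normalised reads in WT 1, 2 and 3, against 1385, 1197 and 1281 in knockdown 1, 2 and 3. The difference was −0.21 (SE 0.12, limma adjusted p = 0.304), so the targeted mRNA did not pass the test, and "knockdown" below means libraries labelled so. Its paralog MSI2 had a difference of −0.40 (SE 0.17, limma adjusted p = 0.198), called only with library weights (0.0404). Of 12 markers of Group 3 and 4 medulloblastoma and its lineage, 8 were above the filter, among them OTX2 and MYC, while EOMES, LMX1A, PAX6 and BARHL1 were under it. Of the 8, ZIC2 rose from 22.4 ± 11.8 to 79.6 ± 5.20 normalised reads (SD, n = 3, difference 0.76, limma adjusted p = 0.0230) and NPR3 fell from 13052 ± 1708 to 7759 ± 1682 (difference −0.76, limma adjusted p = 0.0437), both named after their values were seen. The ZIC2 call was lost without knockdown 1 (0.0873), knockdown 2 (0.0788) or knockdown 3 (0.0755), and that of NPR3 in the replicate block (0.0892) and without any 1 library other than WT 3 (0.0614 to 0.122). The part of these markers in the results was not tested. Immune markers summed to 4.29 to 17.6 normalised reads per library with no marker above the filter, and the endothelial, fibroblast and astrocyte lists had no called gene.

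NOTCH2, NOTCH3 and JAG2 had the highest levels of the 9 genes. To compare genes, normalised reads were divided by the length of the gene's merged exons in GENCODE 29. NOTCH2 stood highest in WT with 901 ± 110 normalised reads per kilobase (SD, n = 3), followed by NOTCH3 at 701 ± 130, JAG2 at 453 ± 93.8, HEY1 at 335 ± 11.8, NOTCH1 at 272 ± 24.9, NUMB at 172 ± 13.7, HES1 at 140 ± 38.3, DLL3 at 72.2 ± 9.31 and JAG1 at 18.7 ± 4.92. The WT ranges of NOTCH2 and NOTCH3 overlapped, as did those of NUMB and HES1, and the other neighbours in the order did not. The order was the same in knockdown, where JAG2 and HEY1 overlapped (506 ± 37.6 and 486 ± 17.5), as did DLL3 and JAG1 (68.2 ± 19.4 and 41.5 ± 12.2). With the length of the main coding transcript in place of merged exons, NUMB passed NOTCH1 in both groups and HEY1 passed JAG2 in knockdown.

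**Figure D1:**
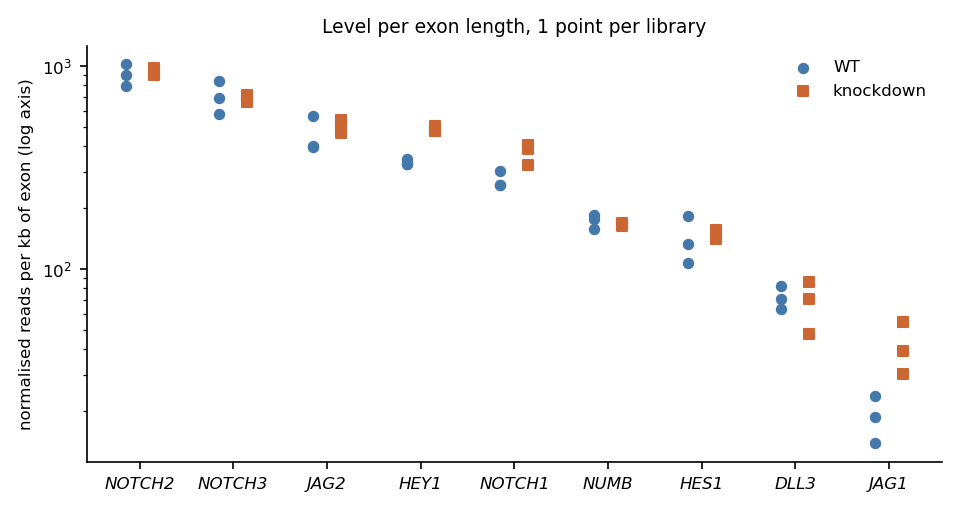
Level of each gene in normalised reads per kilobase of exon (log axis), with 1 point per library, WT as circles and knockdown as squares. NOTCH2 lies highest and JAG1 lowest in both groups, and the knockdown squares lie wholly above the WT circles for HEY1, NOTCH1 and JAG1.

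Of the 9 genes, 2 rose in knockdown and none fell (limma, adjusted p under 0.05 over all 13558 tested genes). Among all tested genes 4.10% were called, 1.78% as rises and 2.32% as falls. The 2 were the ligand JAG1 and the target HEY1. In 3 of the genes, these and NOTCH1, every knockdown library lay above every WT library, which held for 14.1% of all tested genes. Groups that did not overlap in either direction were found in 27.8%. On the deposited scale 7 of the 9 had a higher mean in knockdown, against 51.0% of all tested genes. The count includes NOTCH3, whose difference was near 0, and in normalised reads it was 6. The median difference of the 9 was 0.075 against 0.0061 over all tested genes.

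Among the receptors NOTCH1 had the only separated groups. NOTCH1, which acts in neural progenitors and lies at 136494433 to 136545786 on chromosome 9, minus strand, in GRCh38, had 2669, 3123 and 2680 normalised reads in WT 1, 2 and 3, against 4026, 4233 and 3354 in knockdown 1, 2 and 3. All 3 knockdown values exceeded all WT values, with knockdown 3 closest to WT 2. The means were 2824 ± 259 and 3871 ± 459 (SD, n = 3), a ratio of 1.37. The difference of 0.44 (SE 0.13, 95% interval 0.16 to 0.72) did not pass over all genes (limma, adjusted p = 0.0830), and it passed in none of 15 alternative fits (0.0666 to 0.254). The antisense gene AL592301.1, which overlaps NOTCH1, had at most 6.14 normalised reads in any library.

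NOTCH2, the receptor with the most reads, lies on chromosome 1 at 119911553 to 120069626. It had 15103, 17015 and 13316 normalised reads in WT and 16294, 15058 and 15472 in knockdown, and the knockdown values lay within the WT range. Its difference was 0.05 (SE 0.14, 95% interval −0.25 to 0.35, limma adjusted p = 0.869). Partial copies of NOTCH2 elsewhere on chromosome 1 are nearly identical to it, so its reads may have been shared with them. NOTCH3, best known from vascular smooth muscle and as a Notch target itself, lies on chromosome 19 at 15159038 to 15200981. It had 5423, 7852 and 6481 normalised reads in WT and 6678, 6693 and 6216 in knockdown, again within the WT range. The difference was 0.0028 (SE 0.14, 95% interval −0.32 to 0.32, limma adjusted p = 0.994).

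The mix of receptor mRNA can be read within each library. NOTCH1 made up 14.8%, 14.0% and 14.8% of the summed NOTCH1, NOTCH2 and NOTCH3 level per kilobase in WT and 18.8%, 20.2% and 17.0% in knockdown. NOTCH2 made up 45.5% to 51.8% in WT and 44.4% to 48.3% in knockdown, and NOTCH3 33.3% to 39.6% and 34.4% to 35.3%. Only the NOTCH1 shares were separated between groups. On the deposited scale NOTCH1 minus NOTCH2 was −2.38 in WT and −1.99 in knockdown, and NOTCH1 minus NOTCH3 was −1.18 and −0.74. Both contrasts had separated groups, as NOTCH1 had by itself, so the shares and contrasts restate the same NOTCH1 values. The exact permutation test gave p = 0.1 for each, two-sided. That is the smallest that 3 against 3 libraries can give and cannot pass the threshold.

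JAG1 had the largest difference of the 9 genes and the lowest level. JAG1, a ligand that cells receiving a Notch signal induce in some tissues, lies at 10637684 to 10673999 on chromosome 20, minus strand. It had 220, 173 and 128 normalised reads in WT 1, 2 and 3, against 365, 508 and 283.3 in knockdown 1, 2 and 3. Every knockdown library was above every WT library, with WT 3 the lowest and knockdown 2 the highest. The means were 174 ± 45.7 and 386 ± 114 (SD, n = 3), which is 2.22-fold, and the difference on the compressed deposited scale was 0.83 (SE 0.19, 95% interval 0.41 to 1.26, limma adjusted p = 0.0411). Between 150 and 274 reads in WT and between 264 and 404 in knockdown lay on the gene. The call rested on nearly every library. It was lost without WT 2 (limma adjusted p = 0.0899), WT 3 (0.0763), knockdown 1 (0.141), knockdown 2 (0.124) or knockdown 3 (0.0576), and kept in the other 10 of 15 alternative fits, while the difference stayed between 0.66 and 1.18 in all of them.

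The other measured ligands did not pass. JAG2, the second Jagged ligand, lies on chromosome 14 at 105140981 to 105168824 and had 2573, 2531 and 3591 normalised reads in WT and 3297, 3443 and 2973 in knockdown. WT 3 was the highest of all 6, and all knockdown values lay within the WT range. Its difference was 0.17 (SE 0.15, 95% interval −0.15 to 0.49, limma adjusted p = 0.538), and it ran from 0.085 without WT 2 to 0.33 without WT 3, with no call in any of 15 alternatives. DLL3, an atypical Delta protein that stays largely inside the cell, inhibits Notch signalling in the same cell and lies on chromosome 19 at 39498895 to 39508481. It had 186, 167 and 215 normalised reads in WT and 186, 124 and 225 in knockdown, so the lowest and the highest library were both knockdown. The difference was −0.07 (SE 0.16, 95% interval −0.43 to 0.29, limma adjusted p = 0.840). JAG1 minus JAG2 within a library was −3.06, −3.28 and −4.04 in WT and −2.86, −2.53 and −3.00 in knockdown. The groups did not overlap, but WT 1 and knockdown 3 lay close together (exact permutation p = 0.1, the smallest possible).

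**Figure D2:**
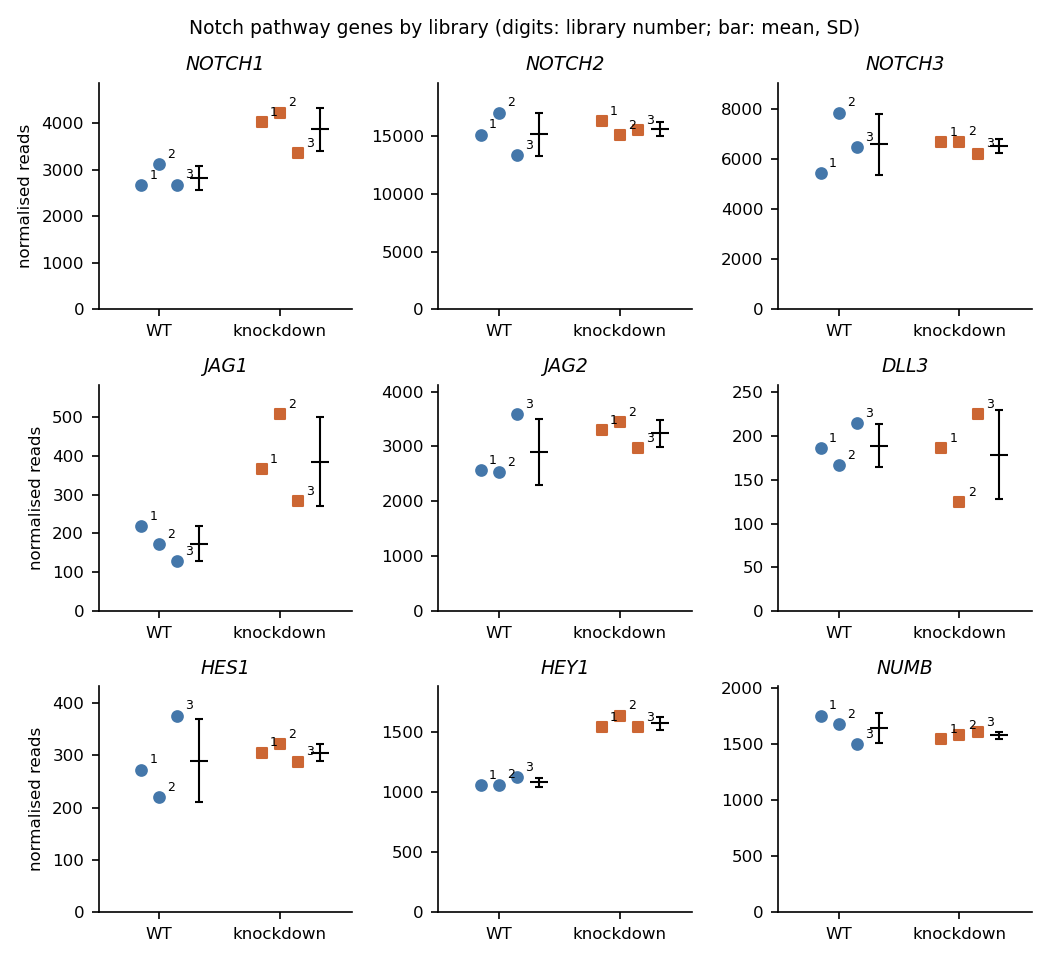
Normalised reads of the 9 genes in each of the 6 libraries, with WT as circles, knockdown as squares, the library number beside each point, and the mean and SD of 3 libraries as bars. JAG1, HEY1 and NOTCH1 have all squares above all circles, and NOTCH2, NOTCH3, JAG2, HES1 and NUMB have squares within the range of the circles.

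Of the targets, HEY1 rose and HES1 did not pass the test. HEY1, a repressor downstream of Notch and of BMP signalling, lies at 79764010 to 79767863 on chromosome 8, minus strand. It had 1057, 1063 and 1126 normalised reads in WT 1, 2 and 3, against 1539, 1637 and 1540 in knockdown 1, 2 and 3. The groups were far apart and each was tight. The means were 1082 ± 38.3 and 1572 ± 56.5 (SD, n = 3), which is 1.45-fold, and the difference was 0.50 (SE 0.11, 95% interval 0.26 to 0.73, limma adjusted p = 0.0335). The call was lost without WT 2 (limma adjusted p = 0.0747), knockdown 1 (0.125), knockdown 2 (0.104) or knockdown 3 (0.129), and in the fit blocked on replicate number (0.0824). The difference itself lay between 0.47 and 0.54 in all 15 alternatives.

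HES1, the repressor whose oscillation paces neural progenitors, lies at 194136145 to 194138732 on chromosome 3, plus strand. It had 272, 220 and 375 normalised reads in WT and 305, 321 and 288 in knockdown. The knockdown libraries lay close together inside a wide WT range set by WT 2 and WT 3. Its difference was 0.08 (SE 0.16, 95% interval −0.27 to 0.42, limma adjusted p = 0.824). HEY1 minus HES1 within a library was 1.64, 1.87 and 1.36 in WT and 2.02, 2.04 and 2.08 in knockdown. Each knockdown value was above each WT value, a shift of 0.42 (exact permutation p = 0.1, the smallest possible). Over the 4 within-library contrasts computed, the Benjamini-Hochberg value was 0.1 for each. In every pair the first gene was HEY1, JAG1 or NOTCH1, which had separated groups by themselves, and the second had overlapping groups. The contrasts therefore restate those values, and other gene pairs were not computed.

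NUMB mRNA did not pass the test. NUMB lies at 73275107 to 73458617 on chromosome 14, minus strand, and had 1751, 1676 and 1497 normalised reads in WT 1, 2 and 3, against 1540, 1579 and 1602 in knockdown 1, 2 and 3. All knockdown values lay within the WT range. The means were 1641 ± 131 and 1574 ± 31.3 (SD, n = 3), or 95.9% of WT. The difference was −0.05 (SE 0.11, 95% interval −0.30 to 0.19, limma adjusted p = 0.818). The interval depends on the fit and was −0.34 to 0.23 with the replicate number as a block. NUMBL, the paralog of NUMB, had 1382 ± 73.1 and 1313 ± 156 normalised reads (difference −0.07, SE 0.12, limma adjusted p = 0.770). Protein was not measured.

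**Figure D3:**
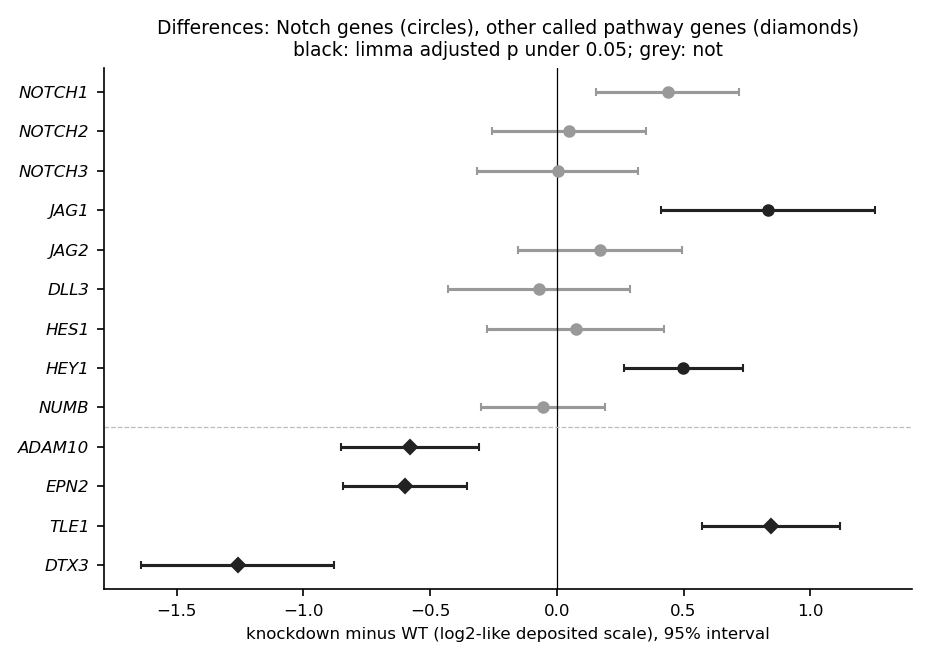
Difference between knockdown and WT on the deposited log2-like scale with its 95% interval from the limma model, for the 9 genes (circles) and for the 4 called genes of the other pathway lists (diamonds), with calls in black. JAG1 at 0.83 and HEY1 at 0.50 are the black circles, and the intervals of NOTCH2, NOTCH3, JAG2, DLL3, HES1 and NUMB span 0.

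Further genes of the pathway were taken from 9 lists of 69 symbols, of which 66 were in the table and 57 were tested. Over these lists 1 gene rose and 3 fell, with a median difference of −0.06. The shares called among all tested genes were those given above, 1.78% as rises and 2.32% as falls.

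Receptor cleavage had 1 fall among 9 tested genes and a median of −0.15. ADAM10, the protease that makes the first ligand-induced cut, had 4435, 4497 and 3699 normalised reads in WT and 2555, 2992 and 2788 in knockdown. The groups were well separated, and ADAM10 fell 1.52-fold (difference −0.58, SE 0.12, limma adjusted p = 0.0330). Its call was lost in 5 of 15 alternatives, namely the replicate block (0.0665) and without WT 2 (0.0827), knockdown 1 (0.152), knockdown 2 (0.0730) or knockdown 3 (0.125). NCSTN, nicastrin of the gamma-secretase complex, chosen after its values were seen, had 3962 ± 224 and 2881 ± 429 normalised reads, separated groups and a difference of −0.45 that did not pass (SE 0.13, limma adjusted p = 0.0804) except with library weights (0.0464).

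Ligand ubiquitination and endocytosis, which lets the ligand pull, had 1 fall among 6 tested genes and a median of 0.03. EPN2, an epsin of clathrin-coated pits, had 1672, 1567 and 1445 normalised reads in WT and 979, 976 and 1028 in knockdown. It fell 1.57-fold (difference −0.60, SE 0.11, limma adjusted p = 0.0202), with knockdown 3 still well under WT 3. It lost its call under the same 5 alternatives as ADAM10 (limma adjusted p = 0.0555 to 0.0961).

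The RBPJ co-repressors had 1 rise among 9 tested genes and a median of −0.06. TLE1, a Groucho co-repressor that works with HES proteins, had 845, 852 and 893 normalised reads in WT and 1786, 1745 and 1401 in knockdown. It rose 1.90-fold (difference 0.85, SE 0.12, limma adjusted p = 0.00810) and lost its call without knockdown 1 (0.0590) but in no other of 15 alternatives. Among its paralogs TLE2 and TLE3 had differences of 0.13 and 0.23 and TLE4 of −0.35, none of which passed.

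NUMB partners and receptor turnover had 1 fall among 12 tested genes and a median of −0.09. DTX3, a Deltex family ubiquitin ligase, had 413, 682 and 586 normalised reads in WT and 144, 177 and 207 in knockdown. It fell 3.18-fold (difference −1.26, SE 0.17, limma adjusted p = 0.00722), the largest difference among all 66 tested pathway genes, and kept its call in all 15 alternatives (0.00026 to 0.0491). Its relatives DTX2 and DTX4 had differences of −0.10 and 0.02. AAK1, the kinase that phosphorylates NUMB and the clathrin adaptor, and FBXW7, which marks the Notch intracellular domain for degradation, were both chosen after their values were seen. AAK1 had 726 ± 58.9 and 494 ± 82.5 normalised reads (difference −0.48, limma adjusted p = 0.0787, and 0.0213 with library weights) and FBXW7 647 ± 59.3 and 468 ± 9.25 (−0.39, limma adjusted p = 0.0955).

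The remaining lists had no call. The list of other HES and HEY genes and feedback targets had 5 tested genes, all with a higher mean in knockdown (median 0.19). Over all tested genes 51.0% had a higher mean, and in only 1 of the 5 were the groups separated. The most abundant, HES6, an antagonist of HES1, had 16713 ± 3378 and 20744 ± 3878 normalised reads (difference 0.31, SE 0.19, limma adjusted p = 0.366). NRARP, a direct Notch target that limits the pathway, was chosen after its values were seen. It had 284, 200 and 193 normalised reads in WT and 389, 470 and 310 in knockdown, with separated groups, and its difference of 0.59 did not pass (SE 0.16, limma adjusted p = 0.0735), though it did without WT 1 (0.0394). HEYL, HEY2 and HES4 had differences of 0.10, 0.19 and 0.16 with overlapping groups. HES5 was not analysed here.

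Among 8 genes of the nuclear activator complex the median was −0.07. RBPJ itself had 2018 ± 400 and 2043 ± 289 normalised reads (difference 0.03, limma adjusted p = 0.944). EP300, the most abundant, an acetyltransferase recruited by Mastermind, had a difference of −0.23 (limma adjusted p = 0.260), and MAML2, chosen after its values were seen, had 163 ± 14.9 and 259 ± 27.3 normalised reads (0.46, limma adjusted p = 0.0727). The 4 tested glycosylation genes had a median of −0.21, with POFUT1, which adds the fucose that receptors need, at −0.20 (limma adjusted p = 0.315). Of the other receptors and ligands DLK2 and EGFL7 were tested, and EGFL7, a secreted protein that binds Notch, had 563 ± 53.0 and 751 ± 8.45 normalised reads (0.36, limma adjusted p = 0.112). DLL4 and DLK1 were under the filter, at 4.12 and 4.26 normalised reads on average in WT.

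Of the proneural factors that HES proteins repress, NEUROG1 and NEUROD1 were above the filter and did not pass the test. NEUROG1 had 3356 ± 343 and 3114 ± 94.4 normalised reads (difference −0.10, limma adjusted p = 0.660). NEUROD1 had 3340, 2804 and 974 in WT and 2883, 3589 and 2581 in knockdown, where WT 3 alone was low, and its difference of 0.48 (SE 0.35) did not pass (limma adjusted p = 0.452). Without WT 3 it was −0.03. NEUROG2 was under the filter, at 1.49 normalised reads on average in WT and 0 in knockdown.

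**Figure D4:**
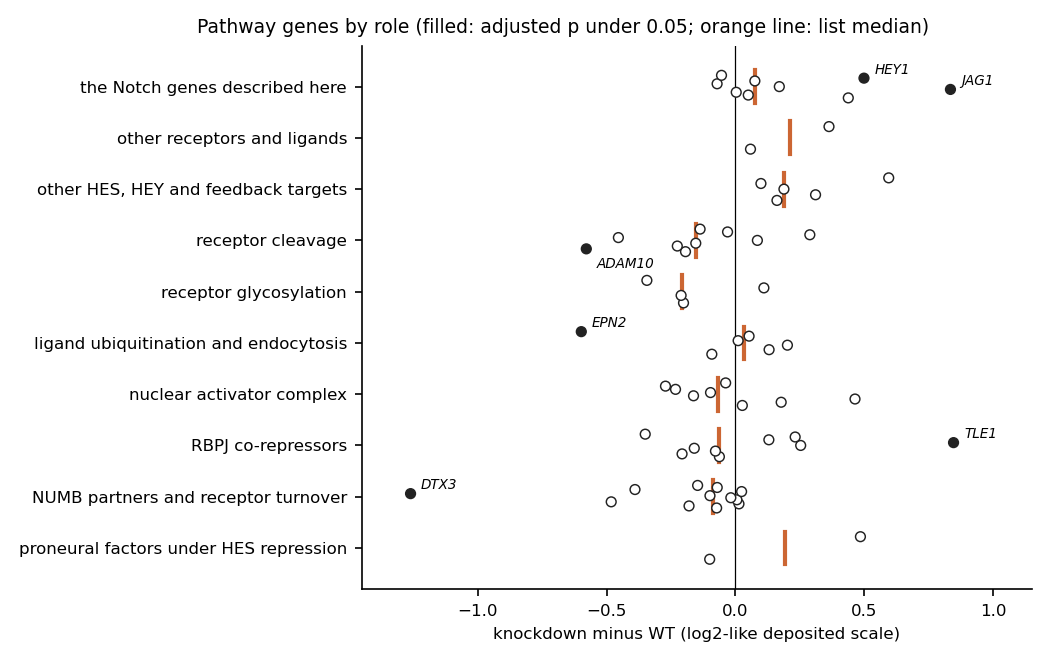
Differences between knockdown and WT on the deposited log2-like scale for each tested pathway gene, grouped by role, with calls filled and named and the list median as an orange line. The calls are JAG1, HEY1 and TLE1 to the right and ADAM10, EPN2 and DTX3 to the left. Open points are genes that did not pass, of which NRARP at 0.59 lies farther right than HEY1 at 0.50.

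The genes whose values followed JAG1 and HEY1 most closely over the 6 libraries were listed as a description. For JAG1 they were STAT2 (Pearson r = 0.997), LZTS1 (0.995) and WDCP (0.992), with differences of 0.27, 1.19 and 0.23. For HEY1 they were LIN9 (0.995), RAD52 (0.994) and KCNJ12 (0.994), with differences of 0.83, 0.22 and 0.81. With 6 points that also share their grouping, 126 tested genes exceeded r = 0.95 with JAG1 and 136 with HEY1.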

How the data were processed

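The members and gene lists were chosen with earlier results of these data known. Total RNA was sequenced from 6 libraries. STAR, DESeq, Trim Galore, CASAVA 1.8.2, FastQC and MultiQC were used with build GRCh38, per the submitters' processing notes. The counting software, its annotation and its strandedness were not given in the sources used here, and overlapping genes may have shared reads. The deposited values are log2-like: from the file's name and the shape of its values, the authors had divided by a size factor per library and stabilised the variance. Columns headed KD were taken as knockdown and those headed VV as WT by elimination. Inverting the function (offset 55.2, lowest value 5.79) returned whole reads for 100% of values within 0.01 after 1 size factor per library, which gave depth, normalised reads and folds.

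Rows with a mean at least 1 above the lowest value were tested (13558) with limma 3.58.1 in R 4.3.3 (trend, two-sided, 95% intervals, Benjamini-Hochberg over all tested rows, threshold 0.05), after tests on simulated data. Genes named beyond the 9 were, by rule, each called pathway gene, the most abundant gene of lists without a call, and the 3 genes most like each called member. Other genes were named after their values were seen, as relatives of named genes, textbook partners or genes near the threshold. Alternatives were other filters, variance models, scalings, library weights, voom on recovered reads, the replicate number as a block, and each library left out. RefSeq (GRCh38.p14) gave promoters and GENCODE 29 positions, matched by symbol. Some results of the gene lists are not reported here.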

Additional observations from a re-analysis of the deposited data

How the results depend on the processing

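The 2 rises among the Notch genes stayed 2 with other filters, variance models, scalings, library weights, voom on recovered reads and without WT 1. They became 1 with the replicate number as a block, and 0 to 2 when 1 library at a time was left out. None of the 9 genes was called lower in any of the 15 alternatives. Over the other pathway lists, the 1 rise became 0 to 2 and the 3 falls became 1 to 3 when a library was left out. With library weights the falls were 5, and with the replicate block 1. The median difference of the 9 genes was 0.12 with library weights and 0.053 to 0.23 without single libraries, highest without WT 3. Among genes with no call the sign could change: NOTCH3 was −0.11 with library weights and −0.012 with median centring, and DLL3 was 0.084 with library weights. Without single libraries NOTCH2 ran from −0.039 to 0.14, NOTCH3 from −0.13 to 0.14, DLL3 from −0.20 to 0.084 and HES1 from −0.058 to 0.23. Of other named genes, RBPJ was −0.028 with library weights and ran from −0.14 to 0.14 without single libraries, DTX4 from −0.10 to 0.13, NUMBL from −0.14 to 0.016 and NEUROD1 from −0.033 to 0.80. The cause of these changes was not tested. Over all tested genes the 556 calls became 1213 with library weights, 221 with the replicate block and 56 to 728 without single libraries. The labels do not say whether libraries with the same replicate number belong together. Deviations from the group mean correlated at −0.0045, −0.25 and 0.0046 for numbers 1, 2 and 3, and WT 2 correlated best with knockdown 1 (0.18). Centring on 3 libraries forces some such correlations to be negative, so they cannot decide whether the libraries were paired. The block was fitted over all 13558 tested genes. Among 46 genes named in the text it removed 4 calls, those of HEY1, ADAM10, EPN2 and NPR3, and added 0. DLL3, JAG1 and HES1 had the fewest reads of the 9 genes, down to 99, 150 and 186 in a library.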
